A study of Saccharomyces cerevisiae with 18 samples.

Results

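Yeast cells in which the Snf1 protein kinase could not be phosphorylated at its activation site were compared with cells carrying the normal kinase, both at low residual glucose. Both strains of Saccharomyces cerevisiae lack the chromosomal SNF1 gene (snf1Δ) and express the kinase from a plasmid. The plasmid of the reference strain, called Snf1 here, encodes HA-Snf1. The plasmid of the T210A strain encodes HA-T210A, the native kinase with its activation-site threonine changed to alanine. Cultures were aerobic, at 30 °C and pH 5.0, in bioreactors of 1 L that held 40 g/L glucose at the start, and cells were taken at 5 g/L glucose (low). The arrays were chosen by their titles, 3 of T210A and 3 of Snf1 at low glucose, which are 6 of the 18 arrays of the study. The same 2 strains at 15 to 20 g/L glucose (high), with 3 arrays each, serve as a further comparison. Both glucose levels of another snf1Δ strain were measured too. Its plasmid HA-Alpha1 joins the catalytic domain of the Alpha1 subunit of AMPK to the regulatory domain of Snf1. These arrays entered the estimate of the spread. They also entered steps that use all 18 arrays, namely the choice of probe set, the floor, the cut for dim genes and the centring of chromosome VIII. Otherwise they are given as levels. The labels describe the replicates as biological and the cells as sampled in steady state. The promoter and copy number of the plasmids, and whether a strain was 1 clone, are not given in the sources used here.

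Snf1 is the yeast member of the AMP-activated protein kinase (AMPK) family. When glucose runs low, the upstream kinases Sak1, Tos3 and Elm1 phosphorylate its activation loop, and the phosphatase Glc7 with its subunit Reg1 reverses this when glucose is plentiful. The active kinase, bound to the gamma subunit Snf4 and to a beta subunit (Gal83, Sip1 or Sip2), relieves repression by Mig1 and acts through activators such as Cat8 and Adr1. Genes that depend on it serve the uptake and use of sugars other than glucose, gluconeogenesis, respiration and storage carbohydrates.

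At low glucose the T210A cells had far lower signals than the Snf1 cells for the glucose transporter gene HXT2 (99.7-fold), the invertase gene SUC2 (38.9-fold) and the lactate permease gene JEN1 (20.8-fold). Lower signals were also found for 68 of 73 genes of mitochondrial ribosomal proteins, 30 of 41 proteasome genes and 8 of 10 histone genes. Signals were higher for 127 of 129 genes of ribosome assembly factors, 48 of 70 genes of amino acid synthesis, the branched-chain amino acid permease gene BAP3 (39.2-fold) and the phosphate transporter gene PHO84 (30.6-fold). Most genes of chromosome VIII were higher as well, and they are described apart. Fewer cells with a transcript and less of it per cell cannot be told apart in these bulk cultures.

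In all, 3066 of 5449 genes (56.3%) passed limma's moderated test at a Benjamini-Hochberg adjusted p under 0.05. Of these, 1621 were higher in T210A (29.7% of all genes) and 1445 lower (26.5%), so counts within a gene group are read against these shares. The 3 arrays of 1 strain all lay above or all below the 3 of the other for 67.4% of genes. Differences are given as T210A minus Snf1 on the log2 scale of the deposited signals, with the SE of the fit and n = 3 arrays per group throughout. Among the 5188 genes outside chromosome VIII 1449 were higher and 1432 lower, and 534 and 278 of these differed by more than 2-fold. The median difference over these 5188 genes was -0.0001. The range from the lower to the upper quartile over all 5449 genes was -0.33 to 0.45.

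The arrays of Snf1 at low glucose correlated with each other across genes at 0.996 to 0.998, and so did those of T210A. The median SD of a gene within these groups was 0.115 and 0.104, against 0.221 in Alpha1 at low glucose, whose spread enters the pooled SE. The alpha mating type markers MF(ALPHA)1, MF(ALPHA)2, STE3 and SAG1 had mean signals of 12.77, 10.83, 9.46 and 10.53 in Snf1 and 12.50, 10.76, 9.33 and 10.32 in T210A. Of these, MF(ALPHA)1 was called lower in T210A. Of the 6 markers of mating type a, 5 were called higher in T210A, with STE2, encoding the alpha-factor receptor, at 3.77 and 4.60. A group mean under 3.25, 1 log2 unit over the mean of the arrays' lowest signals, is called close to the floor below, and a fold taken from it understates any larger difference.

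**Figure D1:**
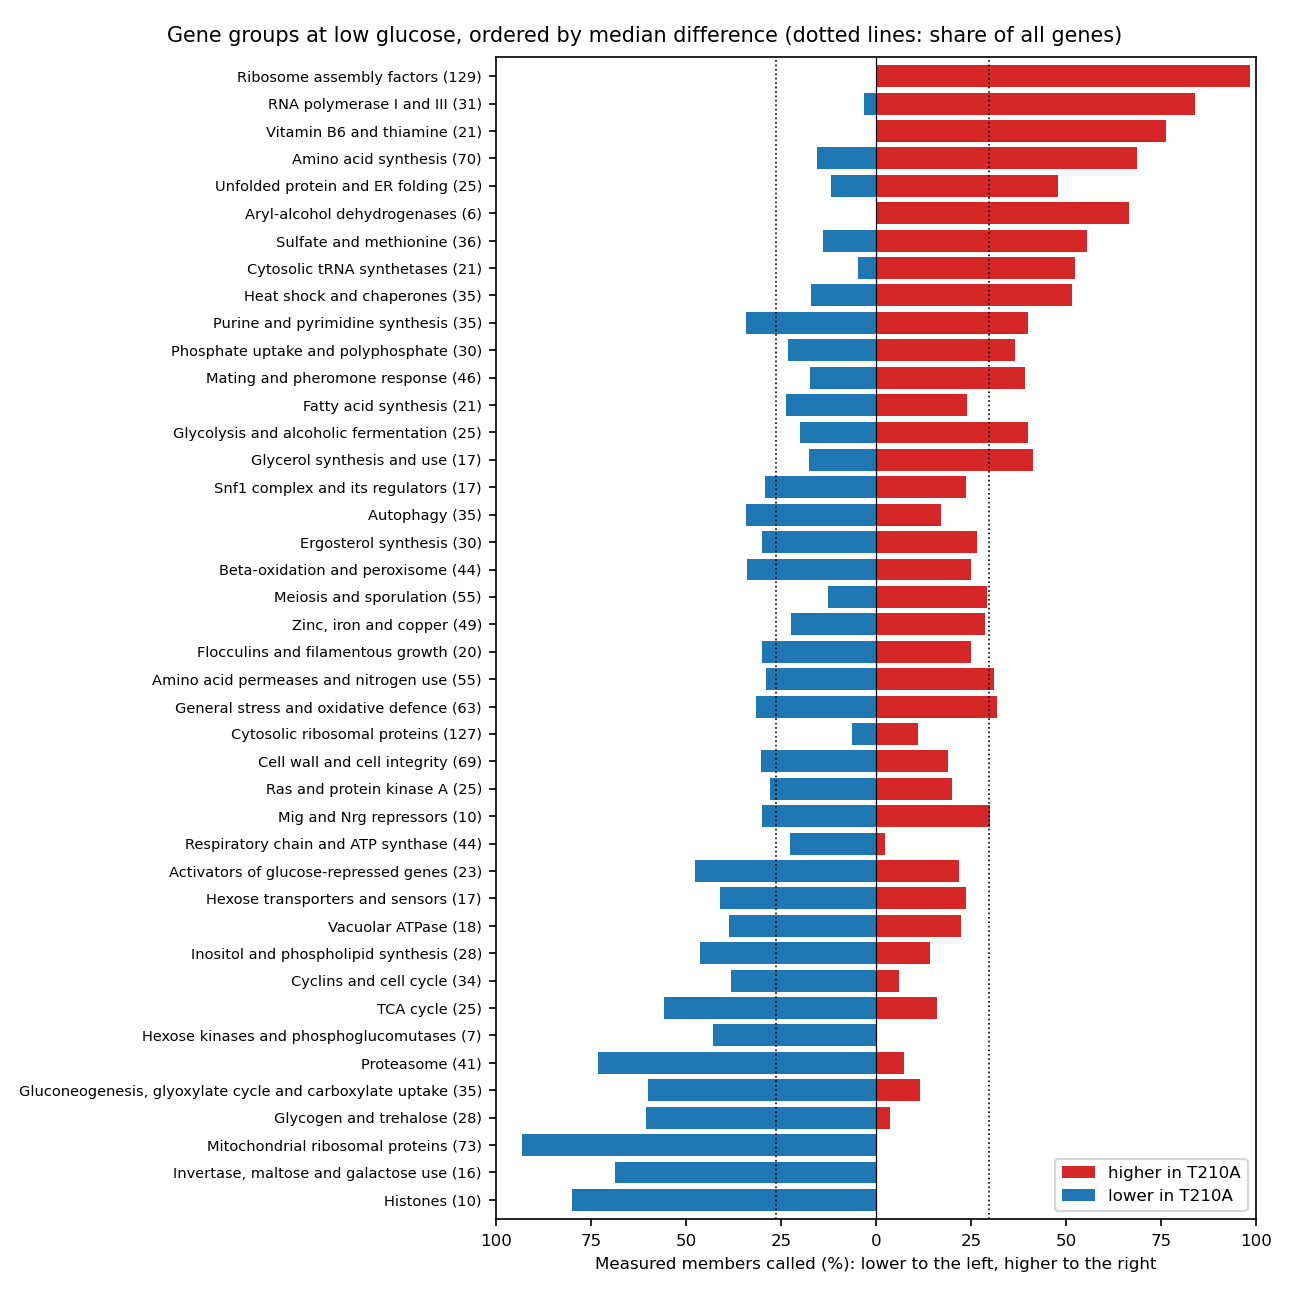
Share of the measured members of 42 gene groups (number in brackets) that were called higher (right, red) or lower (left, blue) in T210A than in Snf1 at low glucose, in percent, ordered by the median difference of the group; members on chromosome VIII are included. Dotted lines mark the shares over all genes, 29.7% higher and 26.5% lower; ribosome assembly factors stand at the top with 127 of 129 members higher, and mitochondrial ribosomal proteins, invertase, maltose and galactose use, and histones at the bottom with 0 members higher.

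The SNF1 probe set (YDR477W, chromosome IV) read 8.44, 8.74 and 8.53 in the Snf1 arrays and 9.26, 9.52 and 9.16 in the T210A arrays. The T210A arrays were the higher ones without overlap, by 0.74 ± 0.13 (adjusted p = 3.24e-04 in limma). As both strains lack the chromosomal SNF1 gene, this signal is read as plasmid transcript, not as expression of the native gene. The T210A change replaces 1 residue and leaves the transcript in place, so the signal does not check the labels. URA3, which encodes orotidine-phosphate decarboxylase and is often carried on yeast plasmids for selection, was 1.87-fold higher (0.90 ± 0.07). At high glucose URA3 was instead lower in T210A (-0.34, adjusted p = 0.0114 in limma), and SNF1 differed by -0.10 without a call. Plasmid copy number was not tested. The upstream kinase gene TOS3 rose in T210A, from 5.22, 5.71 and 5.46 to 7.84, 8.06 and 7.95, while SAK1 (0.08) and ELM1 (0.49) did not pass the test. After quantile normalization SAK1 was called lower (-0.33, adjusted p = 0.00382), and with the replicate number as a block ELM1 was called higher (adjusted p = 0.0201). The T210A arrays lay above all Snf1 arrays for TOS3, a difference of 2.49 ± 0.45 (adjusted p = 3.23e-04).

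Among the kinase subunits, SIP2, a beta subunit, read 6.76, 6.86 and 7.04 in Snf1 and 5.69, 5.66 and 5.88 in T210A, a difference of -1.14 ± 0.20 (adjusted p = 3.31e-04). SNF4, the gamma subunit, was lower by -0.55 ± 0.10, and the beta subunit gene GAL83 (-0.12) did not pass the test. REG2, a phosphatase subunit related to Reg1, had signals of 9.45, 9.56 and 9.54 in Snf1 and 5.24, 5.38 and 5.55 in T210A. It was 17.5-fold lower in T210A with no overlap (-4.13 ± 0.17, adjusted p = 5.75e-10). MTH1, a co-repressor of hexose transporter genes, was 3.27-fold lower (-1.71 ± 0.13). Of 17 genes of the complex and its regulators 4 were higher and 5 lower, shares near those of all genes. The median of the 17 was 0.08, and it was -0.13 after quantile normalization.

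The repressor gene MIG1, whose product is a substrate of Snf1, had signals of 7.69, 8.02 and 7.93 in Snf1 and 5.60, 5.79 and 5.75 in T210A. The groups did not overlap, and MIG1 was 4.49-fold lower (-2.17 ± 0.13, adjusted p = 1.64e-08). Its relative MIG2 was higher (0.82 ± 0.26, adjusted p = 0.0147), a call that ended with quantile normalization (adjusted p = 0.0609). The co-repressor gene TUP1 was lower by -0.60 ± 0.16.

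Activators of glucose-repressed genes were lower in 11 of 23 cases and higher in 5, with a median of -0.14. The 5 higher were PIP2, ERT1, OAF3, HSF1 and GCN4. The group was drawn widely and also held regulators with other main targets, such as GCN4 for amino acid synthesis. No member was left out of these counts for its main targets. CAT8, the activator of gluconeogenic genes, had signals of 6.82, 6.81 and 6.92 in Snf1 and 4.24, 4.18 and 4.51 in T210A. All T210A arrays were below all Snf1 arrays for CAT8, by -2.54 ± 0.17 (adjusted p = 3.52e-08). ADR1, an activator of alcohol and fatty acid use, was 4.10-fold lower (-2.04 ± 0.19), with a T210A mean of 2.76 that is close to the floor. The zinc finger gene USV1 was 8.08-fold lower (-3.01 ± 0.32), and HAP4, the regulatory subunit of the activator of respiratory genes, 1.64-fold (-0.71 ± 0.08). The largest rise in the group was that of PIP2, an activator of peroxisomal genes (1.45 ± 0.28).

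HXT2 (YMR011W, chromosome XIII), a high-affinity glucose transporter gene, read 9.90, 10.01 and 9.92 in the Snf1 arrays and 3.26, 3.20 and 3.45 in the T210A arrays. This was the second largest decrease outside chromosome VIII, -6.64 ± 0.31 (adjusted p = 1.39e-09), or 99.7-fold. The T210A mean of 3.30 lay just above 3.25, the limit for being close to the floor. HXT17, a seldom expressed member of the family, read 8.23, 8.42 and 8.40 in Snf1 and stayed close to the floor in T210A at 2.50, 2.48 and 2.50. Its difference was -5.86 ± 0.20 (adjusted p = 7.92e-11) with its brightest probe set and -3.79 with the mean of its probe sets. HXT13, HXT15 and HXT16 are near-identical to it, so these signals may be shared. The probe sets kept for HXT13 and HXT15 themselves were not called, and sharing was not tested.

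Of 17 hexose transporter and sensor genes 7 were lower and 4 higher. Outside chromosome VIII these counts were 6 and 2 of 14. HXT7, a high-affinity transporter gene nearly identical to HXT6, was 5.36-fold lower (-2.42 ± 0.27), and the low-glucose sensor gene SNF3 2.96-fold lower (-1.57 ± 0.14). The low-affinity transporter gene HXT3 went the other way, 2.64-fold higher (1.40 ± 0.27).

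SUC2 (YIL162W, chromosome IX), which encodes invertase and is the classic target of Snf1, had signals of 11.98, 12.24 and 11.97 in Snf1 and 6.68, 7.12 and 6.54 in T210A. The groups lay far apart, and the difference was -5.28 ± 0.37 (adjusted p = 5.91e-08). MAL32, a maltase gene nearly identical to MAL12, fell from 11.06, 11.08 and 11.20 to 9.30, 9.52 and 9.29, a difference of -1.75 ± 0.32 (adjusted p = 4.26e-04). The isomaltase gene IMA5 (-1.91 ± 0.13) and the maltose permease gene MAL11 (-1.59 ± 0.29) were lower too. Of 16 genes for invertase, maltose and galactose use 11 were lower and 0 higher (median -1.03).

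Glucose phosphorylation was represented by HXK1, a hexokinase gene, which read 12.94, 12.92 and 13.16 in Snf1 and 11.36, 11.68 and 11.48 in T210A. The groups did not overlap, at a difference of -1.50 ± 0.27 (adjusted p = 2.98e-04). HXK2, the hexokinase gene that is expressed when glucose is plentiful, differed by -0.26 ± 0.14 and missed the threshold (adjusted p = 0.138). With the replicate block it passed (adjusted p = 0.0389). Of 7 hexose kinase and phosphoglucomutase genes 3 were lower and 0 higher.

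JEN1 (YKL217W, chromosome XI), the permease for lactate and pyruvate, read 9.87, 9.75 and 9.97 in Snf1 and 5.64, 5.38 and 5.44 in T210A. It was 20.8-fold lower (-4.38 ± 0.38, adjusted p = 4.89e-07), with no overlap. Of 35 genes grouped under gluconeogenesis, the glyoxylate cycle and carboxylate uptake, 21 were lower and 4 higher (median -0.60). The group was drawn widely. It also held RGI1, RGI2, ISF1, MBR1 and the phosphatase subunit gene REG2, which lie outside these pathways and were all among the lower ones. ISF1, a gene linked to mitochondrial function, was 51.5-fold lower (-5.69 ± 0.42), and RGI2, a gene induced in respiratory growth, 19.3-fold (-4.27 ± 0.05). The isocitrate lyase gene ICL1 of the glyoxylate cycle was lower as well (-1.26).

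Among gluconeogenic enzyme genes, MDH2, encoding cytosolic malate dehydrogenase, was lower by -1.28 ± 0.21 (adjusted p = 1.35e-04). FBP1, encoding fructose-1,6-bisphosphatase, had means of 3.13 (SD 0.36) in Snf1 and 2.53 (SD 0.25) in T210A, both close to the floor, and its call (adjusted p = 0.00599) ended when only these groups were fitted (adjusted p = 0.0642). PCK1, encoding phosphoenolpyruvate carboxykinase, differed by 0.34 ± 0.16 (adjusted p = 0.0867), and ADH2, the glucose-repressed alcohol dehydrogenase gene, by -0.12 ± 0.06 (adjusted p = 0.111) at means close to the floor. The 4 members that were higher were DLD3 (2.27 ± 0.19), a lactate dehydrogenase gene, MAE1 (2.21 ± 0.18), the mitochondrial malic enzyme gene, the carnitine acetyltransferase gene YAT2 (1.36 ± 0.13) and VID24 (1.23 ± 0.20), which acts in the degradation of gluconeogenic enzymes.

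**Figure D2:**
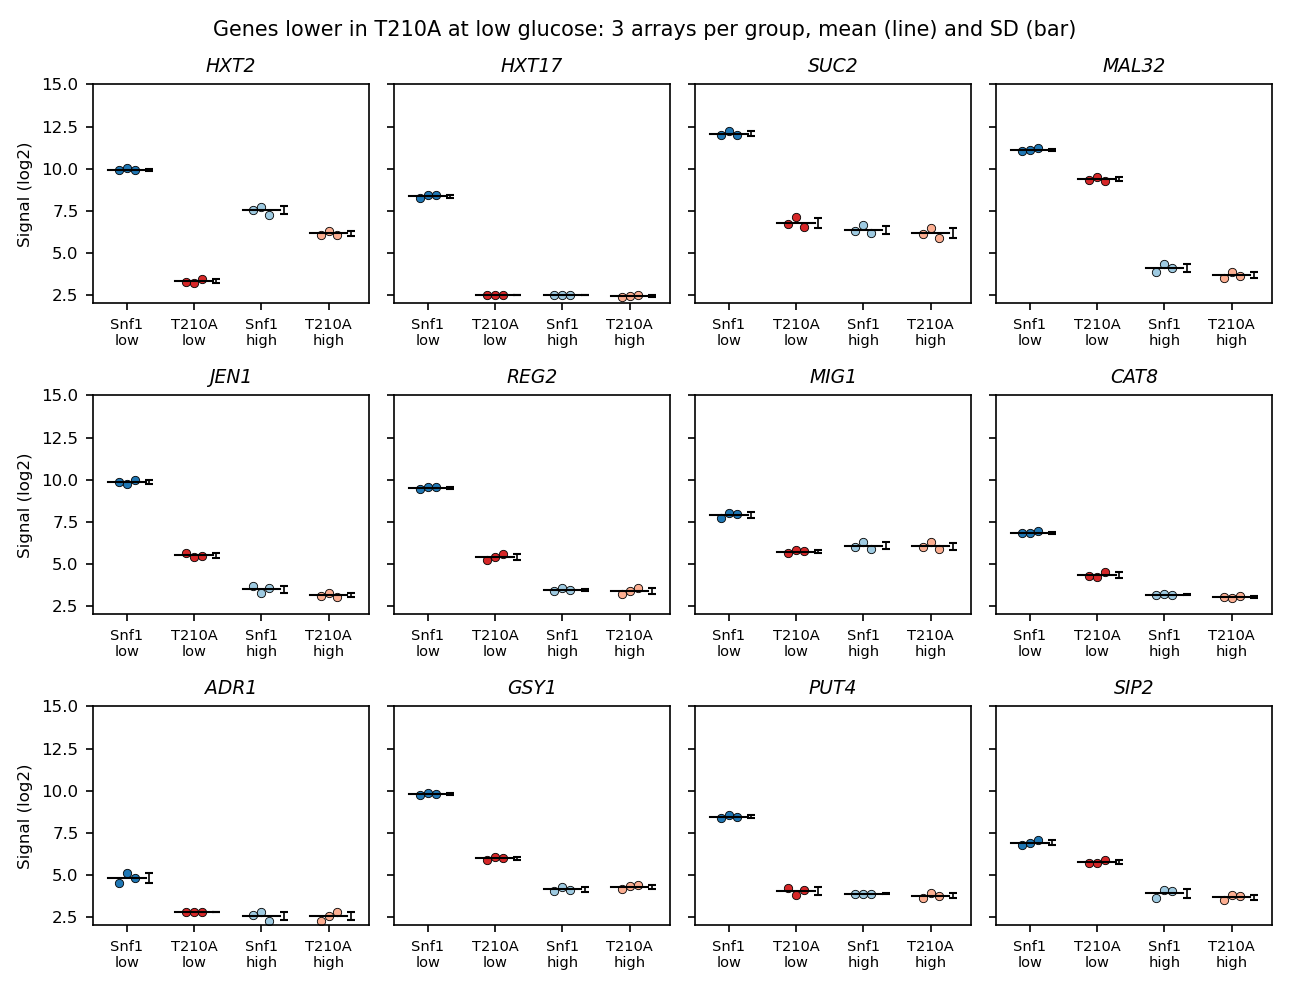
Deposited log2 signal (vertical axis) of 12 genes on each array of Snf1 and T210A at low and high glucose; points are arrays, lines group means and bars SD. For each gene the 3 T210A arrays at low glucose lie below all 3 Snf1 arrays at low glucose. HXT17 and ADR1 in T210A at low glucose have means under 3.25, the limit for being close to the floor.

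Genes of the TCA cycle were lower in 14 of 25 cases and higher in 4 (median -0.33). The isocitrate dehydrogenase gene IDH1 (-1.21) and the aconitase gene ACO1 (-1.37 ± 0.16) were lower, while the peroxisomal citrate synthase gene CIT2 was 3.88-fold higher (1.95 ± 0.12). For the respiratory chain and ATP synthase 10 of 44 genes were lower and 1 higher, with a median of -0.13, which is a share of calls below that of all genes. NDE1, an external NADH dehydrogenase gene, had the lowest difference in that group (-1.03 ± 0.10). SDH1, SDH2, SDH3 and SDH4, all called lower, were counted both there and with the TCA cycle.

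Mitochondrial ribosomes translate the few respiratory subunits that mitochondrial DNA encodes. Of 73 genes of their proteins 68 were lower and 0 higher, with a median of -0.84 and differences from -1.26 to 0.04. MRPL39 (-1.26 ± 0.12) and MRPL32 (-1.23 ± 0.17), both of the large subunit, had the lowest differences. The 5 genes without a call were MRPL44 (-0.32), RSM22 (-0.11), MRPL33 (0.04) and, on chromosome VIII, MRPL6 (-0.08) and MRP4 (0.04), of which MRPL44 was called with the replicate block (adjusted p = 0.00683). The median signal of the group was 9.44 in Snf1 and 8.66 in T210A at low glucose, and 8.38 and 8.25 at high glucose.

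Storage carbohydrate genes were lower in 17 of 28 cases and higher in 1 (median -0.61). GSY1, a glycogen synthase gene, read 9.71, 9.83 and 9.81 in Snf1 and 5.88, 6.05 and 5.96 in T210A, without overlap. It was 14.1-fold lower (-3.82 ± 0.13, adjusted p = 1.02e-10), and GAC1, which targets the phosphatase Glc7 to glycogen synthase, 12-fold (-3.58 ± 0.32). The second glycogen synthase gene, GSY2, differed by 0.24 without a call. The debranching enzyme gene GDB1 (-1.85 ± 0.22) was lower, as was PGM2, the main phosphoglucomutase gene (-1.35 ± 0.18), while the trehalose synthase gene TPS1 (-0.37) was called only with the block (adjusted p = 0.0363), median centring (0.0311) or array weights (3.09e-04).

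The 15 largest decreases outside chromosome VIII also held genes of other roles. YMR206W, an uncharacterized gene, read 9.32, 9.25 and 9.51 in Snf1 and 2.33, 2.38 and 2.76 in T210A with the latter close to the floor. It had the largest decrease of all (-6.87 ± 0.35, adjusted p = 3.45e-09). MRK1, a kinase of the glycogen synthase kinase family, was 58.9-fold lower (-5.88 ± 0.38), and DSF1, a homologue of mannitol dehydrogenase with a near-identical copy elsewhere in the genome, 23.8-fold (-4.57 ± 0.35). The uncharacterized genes YKR075C (-3.94) and YJR115W (-3.84) and the sphingoid base transporter gene RSB1 (-3.82) completed the set with PUT4.

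PUT4 (YOR348C, chromosome XV), the proline permease gene, read 8.37, 8.55 and 8.40 in Snf1 and 4.21, 3.78 and 4.10 in T210A, 21.2-fold lower (-4.41 ± 0.25, adjusted p = 8.94e-09). GAP1, encoding a permease of broad amino acid range, was 7.80-fold lower (-2.96 ± 0.22), and GDH1, the main biosynthetic glutamate dehydrogenase gene, 6.53-fold (-2.71 ± 0.26). BAP3 (YDR046C, chromosome IV), a permease for branched-chain amino acids, went the other way with the largest increase outside chromosome VIII. Its signals were 3.50, 4.13 and 3.99 in Snf1 and 9.14, 9.23 and 9.13 in T210A. No array of the strains overlapped, and the difference was 5.29 ± 0.29 (adjusted p = 7.28e-09). Of 55 amino acid permease and nitrogen genes 17 were higher and 16 lower, shares near those of all genes.

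Histone genes were lower in 8 of 10 cases and higher in 0 (median -1.10). The linker histone gene HHO1 (-1.50 ± 0.08), the H3 gene HHT1 (-1.47 ± 0.21) and the H2A.Z gene HTZ1 (-1.37 ± 0.13) had the lowest differences, and the centromeric variant CSE4 (-0.13) and the second H3 gene HHT2 (-0.08) were not called. Histone copies that encode the same protein may share signal on the array. Of 34 cyclin and cell cycle genes 13 were lower and 2 higher (median -0.31), with RNR1, the large subunit of ribonucleotide reductase, lowest (-1.31 ± 0.21).

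Proteasome genes were lower in 30 of 41 cases and higher in 3, with a median of -0.57. The ATPase subunit gene RPT2 (-0.91 ± 0.10) and the core subunit genes PUP1 (-0.87 ± 0.06) and PRE10 (-0.84 ± 0.09) had the lowest differences. The 3 members that were higher were not core subunits. They were RPN4 (0.50 ± 0.10), the transcription factor of proteasome genes, and the assembly chaperone genes IRC25 (0.53 ± 0.08) and ADD66 (0.55 ± 0.14).

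Of 28 inositol and phospholipid genes 13 were lower and 4 higher (median -0.22), and outside chromosome VIII 13 of 25 were lower and 2 higher (median -0.36). INO1, encoding inositol-3-phosphate synthase, read 10.35, 10.53 and 10.33 in Snf1 and 8.95, 9.35 and 8.92 in T210A, 2.51-fold lower (-1.33 ± 0.24, adjusted p = 3.10e-04). CHO1, the phosphatidylserine synthase gene, was lower as well (-1.54 ± 0.09). ACC1, the acetyl-CoA carboxylase gene whose product Snf1 phosphorylates, differed by -0.07 ± 0.06 (adjusted p = 0.333), and OLE1, the fatty acid desaturase gene, was 3.14-fold higher (1.65 ± 0.20). The flocculin gene FLO11, needed for invasive growth, was 3.64-fold lower (-1.86 ± 0.26), and the sulfate permease gene SUL1 8.91-fold (-3.15 ± 0.08).

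Ribosome assembly genes, whose products process ribosomal RNA and join it with ribosomal proteins in the nucleolus, were higher nearly throughout. Of 129 genes 127 were higher and 0 lower, and 128 had no overlap between the strains (median 1.60). The 117 members outside chromosome VIII had a median of 1.57, with 115 higher. DBP3 (2.58 ± 0.15), an RNA helicase gene, and BFR2 (2.58 ± 0.16), a gene of small-subunit processing, had the highest differences there. The 2 members without a call were TIF6 (-0.05) and UTP22 (0.23). The median signal of the group was 4.71 in Snf1 and 6.44 in T210A at low glucose, against 8.02 and 8.15 at high glucose.

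RNA polymerases I and III, which transcribe ribosomal RNA genes and transfer RNA genes, were higher in 26 of 31 cases and lower in 1 (median 0.92). The polymerase I subunit genes RPA49 (2.19 ± 0.18), RPA34 (1.87 ± 0.14) and RPA135 (1.85 ± 0.15) led. Of the cytosolic ribosomal proteins themselves, 14 of 127 genes were higher and 8 lower, with a median of -0.04, and both shares are below those of all genes. Outside chromosome VIII 9 of 120 were higher. RPL22B was the highest of these (1.15 ± 0.17), and many ribosomal protein genes have a near-identical copy whose signal may be shared. Of 21 cytosolic tRNA synthetase genes 11 were higher and 1 lower (median 0.38).

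Amino acid synthesis genes were higher in 48 of 70 cases and lower in 11 (median 0.74). CPA1 (YOR303W, chromosome XV), a subunit of carbamoyl phosphate synthetase in arginine synthesis, read 8.57, 8.89 and 8.82 in Snf1 and 11.37, 11.60 and 11.48 in T210A. It was 6.59-fold higher without overlap (2.72 ± 0.15, adjusted p = 6.80e-09). YOR302W, the upstream reading frame in the leader of the CPA1 transcript, was 13.4-fold higher (3.74 ± 0.60), and both probe sets may read the same RNA. The threonine aldolase gene GLY1 (2.40 ± 0.27), the aspartate kinase gene HOM3 (2.36 ± 0.14) and the histidine synthesis gene HIS3 (2.14 ± 0.12) were higher. HIS3 is also a common strain marker. GCN4, the activator of amino acid synthesis genes, was higher by 0.48 ± 0.17, a call that ended without T210A replicate 2 (adjusted p = 0.114) or Snf1 replicate 1 (0.0828).

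The lower members of that group included the glycine and folate genes SHM2 (-2.08) and GCV2 (-1.87), and LEU1 (-1.93) of leucine synthesis. Of 35 purine and pyrimidine genes 14 were higher and 12 lower (median 0.28). ADE17 (-2.68 ± 0.39) and ADE1 (-1.91) of purine synthesis were lower, and URA10 (1.80 ± 0.25) of pyrimidine synthesis was higher. Sulfate and methionine genes were higher in 20 of 36 cases and lower in 5 (median 0.52), led by STR3 (2.73 ± 0.16), encoding cystathionine beta-lyase.

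Vitamin B6 and thiamine genes were higher in 16 of 21 cases and lower in 0 (median 0.92). The vitamin B6 gene SNO1 read 4.33, 4.86 and 4.42 in Snf1 and 7.50, 7.48 and 7.67 in T210A, a difference of 3.01 ± 0.18 (adjusted p = 1.58e-08), and its divergently transcribed partner SNZ1 was 5.15-fold higher (2.36 ± 0.16). PHO84 (YML123C, chromosome XIII), the high-affinity phosphate transporter gene, had signals of 2.83, 3.55 and 3.08 in Snf1 and 8.06, 8.17 and 8.03 in T210A. The Snf1 mean of 3.15 was close to the floor, and the difference was 4.93 ± 0.48 (adjusted p = 1.46e-06). With PHO84 itself, 11 of 30 phosphate genes were higher and 7 lower (median 0.24). Outside chromosome VIII 9 of 28 were higher and 7 lower (median 0.14), shares near those of all genes.

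Genes of the unfolded protein response and of protein folding in the endoplasmic reticulum were grouped. Of 25 genes 12 were higher and 3 lower (median 0.74), with INO1, also counted among the phospholipid genes, the lowest. KAR2, the main chaperone of that compartment, read 10.22, 10.52 and 10.27 in Snf1 and 12.27, 12.29 and 12.24 in T210A, 3.81-fold higher (1.93 ± 0.32, adjusted p = 1.64e-04). ERO1, the oxidase of disulfide formation, was higher by 2.07 ± 0.34, and ULI1, a gene induced by unfolded proteins, by 3.48 ± 0.59. HAC1, the activator of this response, differed by 0.99 (adjusted p = 0.177), and was called when only the compared groups were fitted (adjusted p = 0.0184) or with array weights (0.0431).

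Heat shock and chaperone genes were higher in 18 of 35 cases and lower in 6 (median 0.32). HSP30, a plasma membrane protein that restrains the proton pump, read 9.65, 10.09 and 10.02 in Snf1 and 13.08, 13.03 and 13.15 in T210A, 8.96-fold higher (3.16 ± 0.31, adjusted p = 1.59e-06), and its relative YRO2 was higher by 3.42 ± 0.26. HSP12, a marker of the general stress response, differed by 0.08 ± 0.13 (adjusted p = 0.666). The 63 general stress and oxidative defence genes comprised 20 that were higher and 20 lower, with 15 and 19 of 56 outside chromosome VIII. Over the 63 genes both shares are near those of all genes. PHM8, a lysophosphatidic acid phosphatase gene (2.67 ± 0.22), and CTT1, the cytosolic catalase gene (2.23 ± 0.32), were higher.

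The remaining genes among the 15 largest increases outside chromosome VIII had varied roles. They comprised EFM6 (4.09), a methyltransferase of translation elongation factor 1A, ATG41 (3.79), a gene linked to autophagy, the mitochondrial carrier gene YMC2 (3.65), and SRL4 (3.6). BAG7 (3.54), which encodes a GTPase-activating protein for Rho1, IRC7 (3.38), a beta-lyase gene of cysteine use, COM2 (3.05), a transcription factor gene, and the uncharacterized genes YDR222W (3.16) and TDA6 (3.03) also belonged to them. Groups with genes in both directions included autophagy (6 of 35 higher, 12 lower), ergosterol synthesis (8 of 30 higher, 9 lower) and metal uptake (14 of 49 higher, 11 lower). For ergosterol synthesis and metal uptake these shares are near those of all genes (29.7% higher, 26.5% lower). All 4 ergosterol genes of chromosome VIII were among those higher, and outside it 4 of 26 were higher and 9 lower. For metal uptake 11 of 44 were higher and 10 lower outside it.

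**Figure D3:**
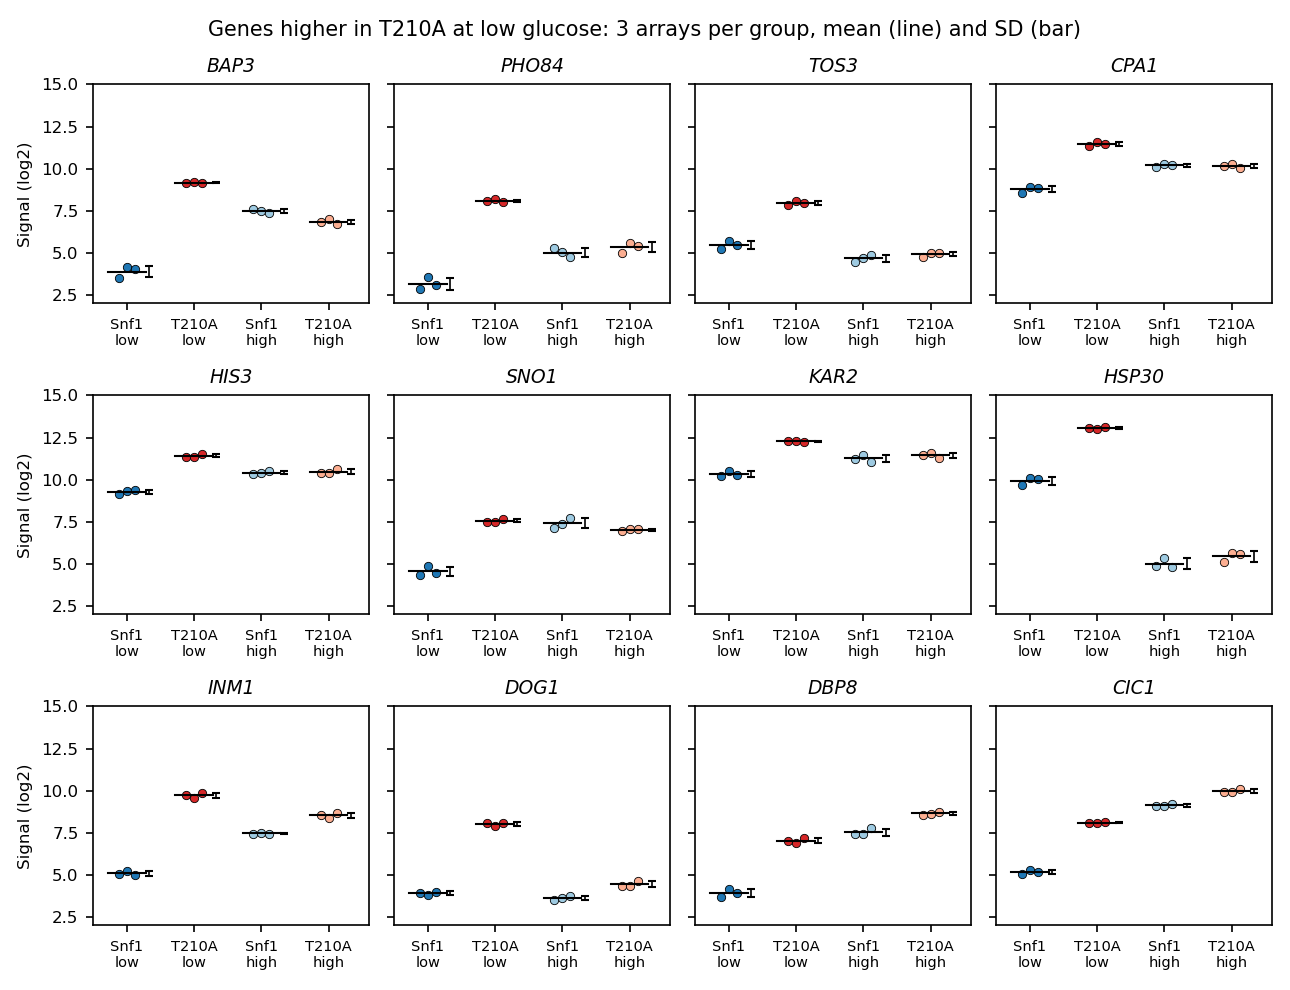
Deposited log2 signal (vertical axis) of 12 genes on each array of Snf1 and T210A at low and high glucose; points are arrays, lines group means and bars SD. For each gene the 3 T210A arrays at low glucose lie above all 3 Snf1 arrays at low glucose; INM1, DOG1, DBP8 and CIC1 in the bottom panels lie on chromosome VIII.

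Chromosome VIII was treated apart, and its genes were shifted together. Of its 261 measured genes (45 on the left arm, named YHL, and 216 on the right arm, named YHR) 172 were higher and 13 lower in T210A, and 87.0% of the differences were positive. The median difference was 0.57, while the medians of the other 15 chromosomes lay between -0.07 (chromosome X) and 0.01 (chromosome XII). In single arrays the median deviation of these genes from the mean of the Snf1 arrays at low glucose was 0.52, 0.60 and 0.61 in T210A. In a Snf1 array, set against the other Snf1 arrays, it was -0.14, 0.11 and 0.03, close to the values of the rest of the genome in the same arrays (-0.13, 0.10 and 0.03). All 3 T210A arrays thus carried the shift, and the Snf1 arrays moved with the rest of their own genes.

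The shift ran along the whole chromosome. In 9 consecutive stretches of 29 genes each the median was between 0.38 and 0.81, and it was 0.59 on the left arm and 0.57 on the right. Genes with a mean over the 18 arrays above 5 had a median of 0.69, and those at 5 or under 0.15. At low glucose the genes were widely spread around it, with quartiles of 0.15 and 1.18, where genes elsewhere had quartiles of -0.35 and 0.40.

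**Figure D4:**
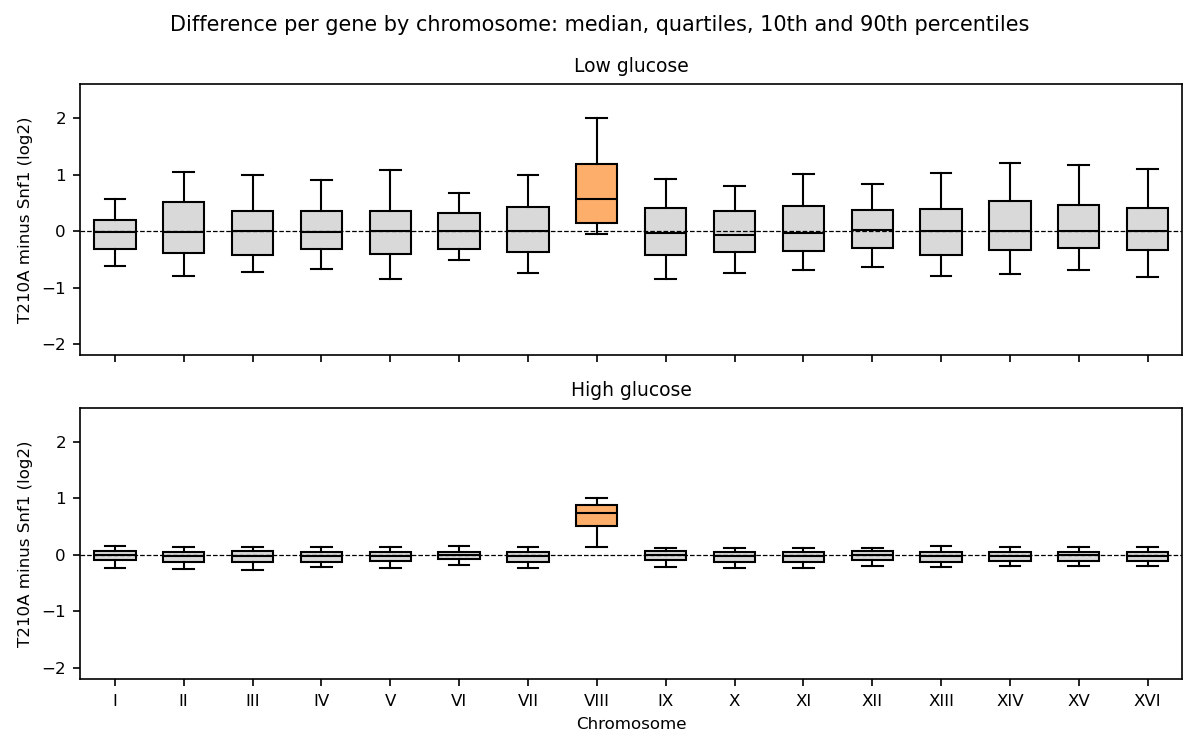
Difference T210A minus Snf1 (log2) of all genes of each chromosome at low glucose (upper panel) and at high glucose (lower panel); boxes show median and quartiles, whiskers the 10th and 90th percentiles. Chromosome VIII (orange) has medians of 0.57 and 0.74, while every other chromosome has its median between -0.07 and 0.01 at low glucose and between -0.03 and -0.0002 at high glucose.

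At high glucose, in other arrays of the same strains, the shift was seen again with a median of 0.74. Of the 261 genes 181 were higher and 0 lower (limma, adjusted p under 0.05; 220 had an unadjusted p under 0.05), whereas over all genes 4.18% were called at this glucose level. The quartiles were 0.51 and 0.88, a narrower spread than at low glucose. The single T210A arrays had medians of 0.70, 0.76 and 0.71. Of the 181 genes higher at high glucose 133 were also higher at low glucose, which is 73.5% of the former and 77.3% of the 172 latter, 9 were lower and 39 were not called. The low minus high difference of the strain differences, tested as a contrast in limma, had a median of 0.02 over chromosome VIII, with 60 genes higher and 56 lower. Over all genes 39.5% were called in this contrast. Expression arrays do not read DNA, so the number of copies of the chromosome was not tested.

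**Figure D5:**
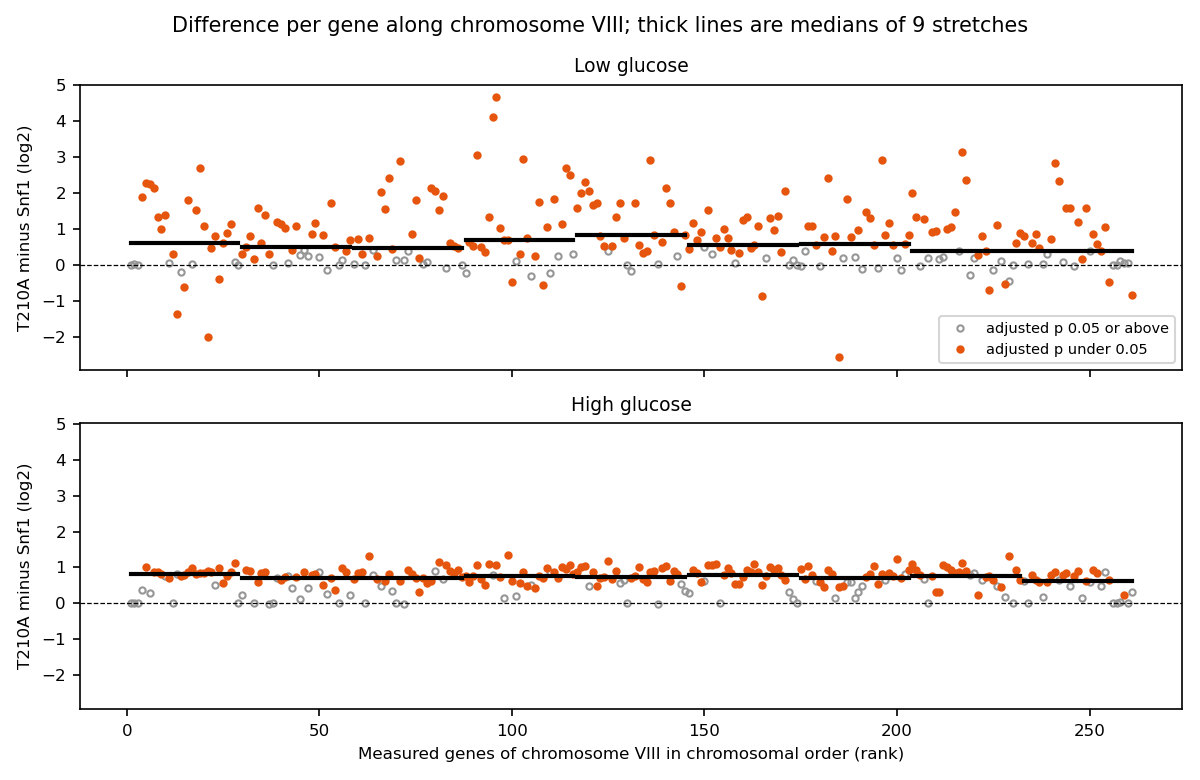
Difference T210A minus Snf1 (log2) of the 261 measured genes of chromosome VIII in chromosomal order at low (upper panel) and high glucose (lower panel); filled points passed the test, open points did not, and thick lines are medians of 9 stretches. The stretch medians lie between 0.38 and 0.81 at low glucose and between 0.62 and 0.82 at high glucose.

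To set each gene against its chromosome, the median deviation of chromosome VIII genes was subtracted from these genes in each array before the fit. Of the 261 genes 95 then lay above the shift and 87 below it in T210A at low glucose, and 56.2% of all genes were called in this fit. Centring on the median puts similar numbers on both sides. Of the 87 genes below the shift, 22 had means close to the floor in both strains, and 60 were not called before the shift was subtracted, so a gene with no measured signal falls below it by construction. With the filter on dim genes, which keeps means above 5, 69 lay above and 68 below. INM1 (YHR046C), encoding inositol monophosphatase, read 5.02, 5.23 and 4.97 in Snf1 and 9.75, 9.57 and 9.86 in T210A, the largest increase on the chromosome (4.65 ± 0.17, adjusted p = 2.02e-10). It stayed 4.05 above the shift. DOG1 (YHR044C), a gene of 2-deoxyglucose-6-phosphate phosphatase with a near-identical neighbour, rose from 3.93, 3.79 and 3.99 to 8.05, 7.90 and 8.07, a difference of 4.10 ± 0.45 (adjusted p = 4.53e-06) that was 3.50 above the shift.

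The 12 ribosome assembly genes of the chromosome were all higher, with a median of 2.59 against 1.57 for those elsewhere. The helicase gene DBP8 read 3.65, 4.12 and 3.90 in Snf1 and 6.99, 6.91 and 7.18 in T210A (3.14 ± 0.13, 2.54 above the shift). CIC1, a factor of the large subunit, was higher by 2.94 ± 0.08, IPI1, which acts in the maturation of the same subunit, by 2.92 ± 0.15, and IMP3, a protein of the small-subunit processome, by 2.91 ± 0.12. The snoRNA assembly gene BCD1 (3.05 ± 0.22) and the uncharacterized YHR022C (2.87 ± 0.14) were also among the 8 largest increases. The cyclin gene PCL5 (2.06 ± 0.18) and the cell integrity kinase gene SLT2 (2.06 ± 0.28) lie on this chromosome too, and both stayed above the shift, by 1.46 and 1.46.

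The 13 genes of chromosome VIII that were lower went against the shift of their chromosome. ARO9 (YHR137W), an aromatic aminotransferase gene, read 5.71, 5.91 and 5.90 in Snf1 and 3.36, 3.43 and 3.0 in T210A, 5.97-fold lower (-2.58 ± 0.10, adjusted p = 2.44e-10) and -3.18 from the shift. RIM4 (YHL024W), an RNA-binding regulator of meiosis, fell from 7.37, 7.85 and 7.67 to 5.66, 5.72 and 5.50 (-2.00 ± 0.15). GUT1, the glycerol kinase gene, was lower by -1.37 ± 0.25. COX23, a gene of cytochrome oxidase assembly (-0.88), the IMP dehydrogenase gene IMD2 (-0.84), which has near-identical relatives, and FMO1, a flavin monooxygenase gene (-0.72), followed. The proteasome gene ECM29 (-0.61) and the hexose transporter gene HXT4 (-0.58) were the smallest of the 8 named. At high glucose ARO9, RIM4, COX23, FMO1 and ECM29 had been higher in T210A, by 0.46, 0.89, 0.52, 0.75 and 0.78, all called.

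Outside chromosome VIII few genes were called at high glucose. There 13 genes were higher and 34 lower, 0.906% of the 5188, against 2881 at low glucose, and the arrays of the 2 comparisons are not shared. Of these 34 genes 23 were also lower at low glucose, which is 67.6% of the 34 and 1.61% of the 1432 lower there, 7 were higher and 4 not called. The direct test of the difference between glucose levels called 2037 genes outside chromosome VIII, and 2003 of the 2881 genes called at low glucose (69.5%) were among them. This test uses the same low-glucose arrays as those calls, so part of the overlap is built in. HXT2 was lower at both levels, by -1.38 at high glucose (adjusted p = 0.0170) and by -6.64 at low. Its T210A arrays at high glucose read 6.06, 6.30 and 6.07 against 7.56, 7.74 and 7.25 in Snf1, and the interaction was -5.26 (adjusted p = 1.05e-06). SUL1 (-0.83) and CHO1 (-0.55) were lower at high glucose too. For SUC2 the difference at high glucose was -0.21 (adjusted p = 1.000), for BAP3 -0.65 (adjusted p = 0.445) and for PHO84 0.32 (adjusted p = 1.000).

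Levels in the Alpha1 strain at low glucose are given beside these without a test. SUC2 read 9.73, 9.05 and 11.05 in its 3 arrays, between Snf1 and T210A. HXT2 read 6.45, 4.76 and 6.02 and JEN1 5.38, 5.13 and 7.24. MIG1 read 7.46, 7.41 and 7.55, and BAP3 2.57, 4.16 and 2.98. The median signal of ribosome assembly genes was 6.0 there, between 4.71 in Snf1 and 6.44 in T210A, and that of mitochondrial ribosomal protein genes was 9.24, also between both.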

How the data were processed

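RNA labelled for Affymetrix yeast arrays was measured in 6 groups of 3 arrays, grouped by title. The deposited table holds a log2 signal for each probe set, made by the authors with RMA in the affy package per the submitters' processing notes; versions, genome build and batches are not given in the sources used here. No further scaling was applied. The table held 5716 probe sets, of which 5498 named 1 gene and 218 none, and 12 symbols were updated. For 47 genes the probe set with the highest mean over 18 arrays was kept, which left 5449 genes. Values ran from 2.25 to 14.3, array medians were 6.77 to 7.03, 0 arrays were identical, and the number of arrays limits the precision.

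limma 3.58.1 in R 4.3.3 fitted a mean for each of the 6 groups, with 12 residual degrees of freedom and 1.18 prior ones. Benjamini-Hochberg adjustment was over all genes. The procedure was also run on simulated data with independent noise for each gene and array. That setting lacks deviations shared by arrays, so it does not vouch for the calls given here. The labels say only that replicates are biological, so p-values measure the spread between these samples. Same-numbered arrays of Snf1 and T210A at low glucose deviated together across genes (r = 0.34, 0.26 and 0.24). The highest r between different numbers was -0.06, but deviations from a group mean cancel out, which pushes these values down. At high glucose same-numbered Snf1 and T210A arrays deviated together too (r = 0.38, 0.71 and 0.51), while T210A and Alpha1 did not for number 3 (r = -0.24). Whether the numbers pair the arrays is thus not settled. The reported SE and p-values take no account of a pairing, and the fit with the replicate block is given as an alternative.

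The comparison, the gene groups and the rule for named genes were chosen with earlier results of these data known. The rule took the 15 largest called differences in each direction outside chromosome VIII and the 8 largest on it, among genes without overlap, the 5 in each direction farthest from the shift of chromosome VIII, 25 anchor genes and up to 4 called members of each group with the largest differences. It named 202 genes. The report gives values of 146 genes, of which 30 fall outside the rule and were chosen after their values were seen.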

Additional observations from a re-analysis of the deposited data

Results flagged for a closer look

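For the genes named here the difference between T210A and Snf1 itself differed between the glucose levels. The test was limma's interaction contrast at an adjusted p under 0.05, which called 39.5% of all genes. Of the 146 genes given with values, 123 were called in it and 23 were not. Many of these genes were named for a large difference at low glucose. The contrast uses the same low-glucose arrays, so its calls are not independent of that choice. The value in brackets is the difference at low glucose minus that at high glucose on the log2 scale. Among regulators of glucose repression it was lower at low glucose for REG2 (-4.04), MTH1 (-1.28), SIP2 (-0.91), SNF4 (-0.57), MIG1 (-2.16), USV1 (-3.15), CAT8 (-2.41), ADR1 (-2.02) and HAP4 (-0.51), and higher for TOS3 (2.24), SNF1 (0.84), MIG2 (1.09) and PIP2 (1.38). SNF1 is expressed from the plasmid in both strains.

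In carbon use it was lower for HXT2 (-5.26), HXT17 (-5.78), HXT7 (-1.86), SNF3 (-1.21), SUC2 (-5.07), MAL32 (-1.30), MAL11 (-1.52), IMA5 (-1.92), HXK1 (-1.25), PGM2 (-1.42), JEN1 (-4.05), ISF1 (-5.69), RGI2 (-4.27), ICL1 (-1.19), MDH2 (-0.82), ACO1 (-1.57), IDH1 (-1.39), NDE1 (-0.87), GSY1 (-3.95), GAC1 (-3.32), GDB1 (-2.12), MRK1 (-5.86) and DSF1 (-4.51), and higher for HXT3 (1.72), DLD3 (2.14), MAE1 (2.27), YAT2 (1.81), VID24 (1.25) and CIT2 (2.08). Among other genes with a lower value at low glucose were YMR206W (-6.87), YKR075C (-3.68), YJR115W (-3.71), RSB1 (-3.83), PUT4 (-4.31), GAP1 (-3.14), GDH1 (-2.83), SUL1 (-2.33), CHO1 (-0.99), FLO11 (-2.85), MRPL39 (-1.02), MRPL32 (-0.66), RPT2 (-0.84), PUP1 (-0.92), PRE10 (-0.76), HHO1 (-1.53), HHT1 (-1.33), HTZ1 (-1.36), RNR1 (-1.42), SHM2 (-2.01), GCV2 (-1.87), LEU1 (-1.97), ADE17 (-2.66) and ADE1 (-1.96).

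It was higher for BAP3 (5.94), PHO84 (4.62), EFM6 (4.12), ATG41 (3.96), YOR302W (3.81), CPA1 (2.77), YMC2 (3.59), SRL4 (3.64), BAG7 (3.59), ULI1 (3.43), YRO2 (2.88), IRC7 (3.36), HSP30 (2.74), YDR222W (2.56), COM2 (2.99) and TDA6 (2.96), for URA3 (1.25), GLY1 (2.42), HOM3 (2.31), HIS3 (2.07), STR3 (2.38), URA10 (1.83), SNO1 (3.39), SNZ1 (2.81) and OLE1 (1.72), and for DBP3 (2.51), BFR2 (2.46), RPA49 (2.04), RPA34 (1.70), RPA135 (1.81), RPL22B (1.19), KAR2 (1.75), ERO1 (2.07), PHM8 (2.30), CTT1 (2.32), RPN4 (0.45), IRC25 (0.55) and ADD66 (0.56). On chromosome VIII it was higher for INM1 (3.58), DOG1 (3.30), DBP8 (2.02), BCD1 (1.98), CIC1 (2.08), IPI1 (2.05), IMP3 (2.08), YHR022C (2.25), PCL5 (1.57) and SLT2 (1.16), and lower for ARO9 (-3.04), RIM4 (-2.89), GUT1 (-2.18), COX23 (-1.40), IMD2 (-1.14), FMO1 (-1.47), ECM29 (-1.39), HXT4 (-1.12) and MRPL6 (-0.63).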

How the results depend on the processing

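Alternatives were a robust prior with a trend, the compared groups alone, the replicate block, quantile normalization, median centring, a filter on genes with a mean of 5 or under (4481 genes left), the mean of probe sets, array weights, a minimum fold of 1.2, the fit without or only with chromosome VIII, and each array left out. A minimum fold of 1.2 gave 1884 called genes in place of 3066, 1744 in place of 2881 outside chromosome VIII, and 1273 in place of 2153 for the low minus high difference. Array weights gave 3252 for the latter. The median of chromosome VIII was 0.69 with the filter on dim genes. With the replicate block 3394 genes were called, 200 on chromosome VIII and 3194 elsewhere, and the low minus high difference called 2543. Leaving out each array gave 2764 to 2819 calls, 169 to 175 on chromosome VIII, 2592 to 2644 elsewhere, 163 to 171 against the shift of the chromosome, 1923 to 1977 for the low minus high difference, and a chromosome VIII median of 0.52 to 0.60. Quantile normalization gave 1471 higher and 1815 lower genes. Of 3671 comparisons of a gene between fits, 3589 kept the direction and the call, 49 lost it, 24 gained it and 9 changed sign. The latter concerned SAK1 (-0.33), TIF6 (0.028) and UTP22 (-0.076) with quantile normalization, MRPL33 (-0.0017) with median centring and MRP4 (-0.017) with array weights. Leaving out each array gave -0.054 to 0.11 for MRP4, -0.030 to 0.11 for MRPL33 and -0.10 to 0.010 for TIF6. None of these genes was called in the reported fit. A minimum fold of 1.2 ended, among the genes given with values, the calls of FBP1, TUP1, MIG2, HXT4, ADD66 and GCN4. Array weights added those of ACC1, GAL83, HXK2, PCK1, ELM1, HAC1, MRPL44 and TPS1, fitting only the compared groups those of ELM1, HAC1, MRPL44 and RSM22, median centring those of ELM1, HXK2, PCK1 and TPS1, and ADH2 was called without Snf1 replicate 3. The replicate block added ELM1, HXK2, MRPL44 and TPS1 and changed no other call of a gene followed. The cause of these changes was not tested. Signals near the floor limit the folds, since 47 genes lower in T210A had means close to the floor there, and 128 higher genes had such means in Snf1.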
